A study of Saccharomyces cerevisiae with 91 samples.

Results

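Ribosome biogenesis genes encode the factors that cut, modify and fold ribosomal RNA and assemble it with ribosomal proteins. Their promoters were taken from a table of in vivo nucleosome positions in S. cerevisiae as every row whose gene name consists of NOP, UTP, RRP, RPF, NSA or IMP followed by a number. The rule found 54 of the 4536 open reading frames (ORFs), in a table of 4963 transcripts. The values are coordinates of nucleosome dyads, the midpoints of the nucleosomal DNA, and by the study's methods they derive from a single MNase-seq library (1 sample) of BY4741, a wild-type laboratory strain grown in YPD to log phase. The study used these in vivo positions as the reference for chromatin that it reconstituted and remodeled with INO80, and those other libraries among the 91 of the series were not analysed here. As 1 library was taken as the source of the dyads, no value has a replicate error, and the sequencing depth behind a dyad is unknown. The intervals given are 95% intervals over genes, which are not replicates, and no test over genes was made.

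In yeast, the promoter of an active gene is a nucleosome-depleted region (NDR) between the −1 nucleosome and the +1 nucleosome, the first nucleosome of the transcribed region. Ribosome biogenesis genes are transcribed together during fast growth and repressed together when nutrients run out. Their promoters are known for a pair of short elements, PAC, which binds the repressors Dot6 and Tod6, and RRPE, which binds Stb3. Both elements were originally described in promoters of these genes, so their presence here is not independent evidence of anything about the class.

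All 54 genes had a +1 dyad, a −1 dyad and an NDR length, which is the distance from the −1 to the +1 dyad, and all matched a gene of the R64 annotation by systematic name and symbol. The names IMP1 and IMP2 meet the rule but belong to another class. These genes encode catalytic subunits of the inner membrane peptidase of mitochondria, and they stayed among the 54 because the rule takes them. Of the other genes, 16 act mainly on the large ribosomal subunit, 9 on the small subunit outside named subcomplexes, 12 belong to the UtpA, UtpB and UtpC subcomplexes that bind the nascent ribosomal RNA, 3 to the U3 small nucleolar ribonucleoprotein, 4 act on both subunits, 7 are subunits of the exosome that trims ribosomal RNA and 1 is the methyltransferase fibrillarin, NOP1.

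Stretches of promoters that hold both elements are shown first, since the counts and positions of PAC and RRPE are described below. PAC was searched as GCGATGAG and RRPE as GAAAAATTT, on both strands, within 300 bp upstream of the +1 dyad. The 8 promoters with the smallest spacing are shown in the direction of transcription, with 12 flanking bases on each side and with PAC and RRPE in capitals, where RRPE on the other strand reads AAATTTTTC. On R64 they lie at chrIV:611962-612003 (plus strand, RRP8), chrXII:937327-937368 (minus strand, UTP21), chrV:414293-414341 (minus strand, NSA2), chrXI:592643-592691 (minus strand, RPF2), chrXIII:82963-83014 (plus strand, UTP14), chrIV:190701-190756 (minus strand, NOP14), chrVII:695274-695331 (plus strand, NOP7) and chrXIV:308694-308752 (minus strand, NOP13).
RRP8: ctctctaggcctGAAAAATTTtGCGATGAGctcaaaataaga
UTP21: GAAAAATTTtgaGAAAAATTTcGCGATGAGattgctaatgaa
NSA2: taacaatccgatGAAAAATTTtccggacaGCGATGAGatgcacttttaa
RPF2: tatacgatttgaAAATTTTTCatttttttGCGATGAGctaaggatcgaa
UTP14: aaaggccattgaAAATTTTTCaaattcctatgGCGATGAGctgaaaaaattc
NOP14: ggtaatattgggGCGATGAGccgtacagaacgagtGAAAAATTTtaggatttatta
NOP7: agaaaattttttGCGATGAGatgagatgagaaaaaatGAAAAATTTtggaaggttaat
NOP13: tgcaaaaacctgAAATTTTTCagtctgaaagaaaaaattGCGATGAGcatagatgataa

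In all 8 stretches PAC reads on the coding strand. Over all 14 promoters with both elements it does so in 10, beside 38 of 71 in the other ORFs with both. RRPE reads on either strand, and UTP21, a subunit of UtpB, has a second copy of RRPE in the stretch. In NOP7, the yeast homologue of Pescadillo in large subunit assembly, PAC runs into repeats that hold 3 overlapping copies of its core GATGAG. A motif match is a match of letters and says nothing of binding.

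The ribosome biogenesis promoters had NDRs of similar length, with few short ones. Their median NDR length was 285 bp (95% interval 278 to 299 bp, n = 54), beside 265 bp (263 to 267 bp, n = 4431) in all other ORFs. Their quartiles were 272.75 and 305 bp, a range of 32.25 bp, whereas the quartiles of the other ORFs were 227 and 298 bp, a range of 71 bp. The SD over genes was 43.3 bp in the 54 genes and 81.2 bp in the other ORFs. An NDR shorter than 200 bp was found in 1 of 54 genes, or 1.85%, and in 17.1% of the other ORFs. An NDR longer than 300 bp was found in 19 of 54 genes, or 35.2% (23.8 to 48.5%), and in 24% of the other ORFs. This value of the other ORFs lies within the interval. The lower part of the distribution thus differed more from the other ORFs than the upper part.

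**Figure D1:**
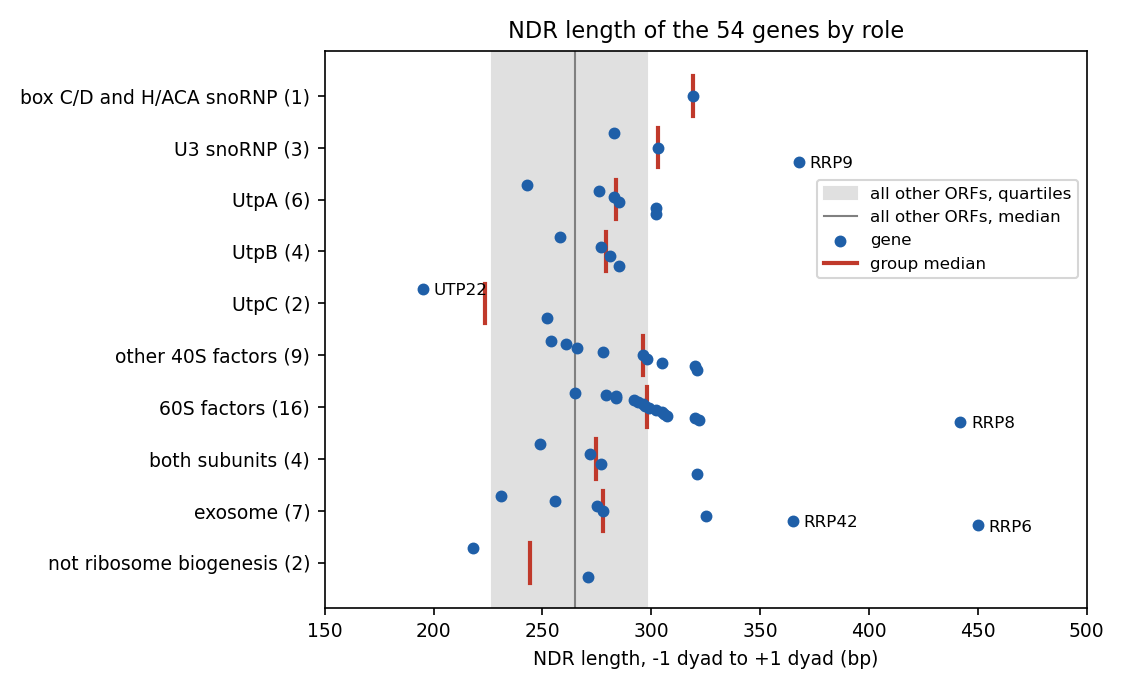
NDR length in bp (x axis) of each of the 54 genes (points), grouped by role with the number of genes in brackets. Red lines are group medians, the grey line and band are the median of 265 bp and the quartiles of 227 and 298 bp of all other ORFs, and UTP22 and IMP1 are the genes to the left of the band.

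The medians differed on the side of the −1 nucleosome rather than on that of the +1 nucleosome. The −1 dyad lay at a median of 233.5 bp upstream of the transcription start site (TSS; 219 to 248 bp), beside 210 bp (208 to 213 bp) in the other ORFs. For the +1 dyad the median distance downstream was 55 bp (50 to 57 bp), beside 54 bp (53 to 55 bp), so that the medians differed by less than the interval of the 54 genes. The spread of the +1 distance was smaller in these genes than in the other ORFs, with quartiles of 47.25 and 61.75 bp against 40 and 72 bp. The quartiles were 38 and 58 bp in the other pathway genes. They were 44 and 63 bp in mitochondrial and 41.25 and 79 bp in cytosolic ribosomal protein genes. The quartiles of the −1 distance were 203.5 and 258 bp in the 54 genes against 158 and 248 bp in the other ORFs. By the study, the TSSs were annotated from separate public transcriptome data, and their precision is unknown here.

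**Figure D2:**
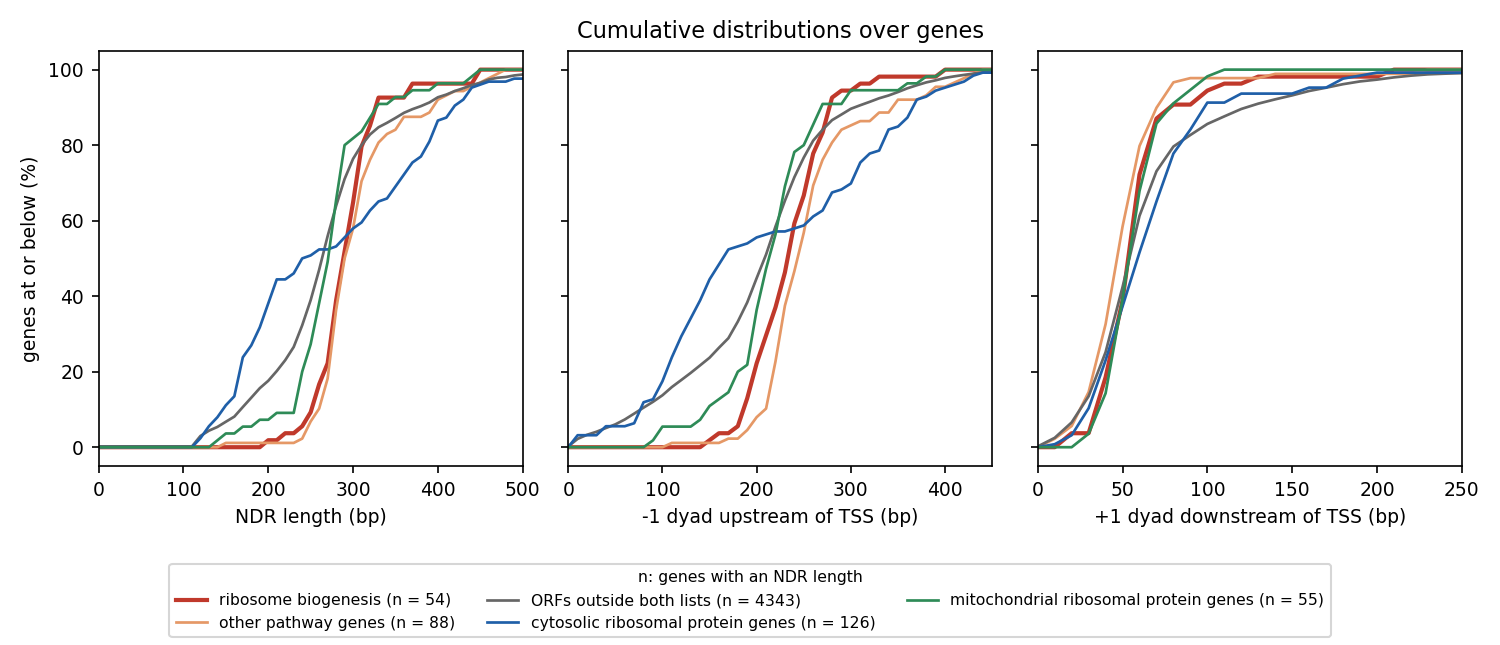
Cumulative percentage of genes (y axis) against NDR length, distance of the −1 dyad upstream of the TSS and distance of the +1 dyad downstream of the TSS (x axes, bp), with cytosolic (blue) and mitochondrial (green) ribosomal protein genes beside them. The curve of the 54 genes (red) and that of the other pathway genes (orange) rise later and more steeply than the curve of ORFs outside both lists (grey) for NDR length, whereas the +1 curves of these groups cross 50% between 47 and 55 bp.

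Factors of the large subunit had NDRs of 265 to 322 bp apart from RRP8. Their median was 298 bp, with a range from 265 bp at RRP1 to 442 bp at RRP8, and 15 of 16 held PAC or RRPE. NSA1 and NOP8 both measured 284 bp, RPF2, which brings the 5S ribonucleoprotein into the particle, 292 bp, and NSA2 294 bp. NOP13 measured 296 bp, the nuclease RRP17 297 bp and the RNA-binding protein NOP4 299 bp. NOP53, which recruits the exosome to the maturing particle, measured 302 bp and was the gene of this group without PAC or RRPE. NOP12 had 279 bp, RPF1 305 bp, NOP16 306 bp, NOP7 307 bp and NOP15 320 bp. NOP2, a methyltransferase of the large subunit RNA, had 322 bp.

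Genes of the small subunit ranged from 195 bp at UTP22 to 368 bp at RRP9. UtpA, which binds the first part of the transcript, had a median of 284 bp, from 243 bp at UTP4 to 302 bp at UTP5 and UTP8, and all 6 genes held PAC or RRPE. The remaining UtpA genes were UTP10 with 276 bp, UTP9 with 283 bp and UTP15 with 285 bp. UtpB had a median of 279 bp, from 258 bp at UTP13 to 285 bp at UTP21, with UTP18 at 277 bp and UTP6 at 281 bp. The UtpC genes measured 195 bp (UTP22) and 252 bp (RRP7), and both held RRPE without PAC. In the U3 group, IMP3 measured 283 bp, IMP4 303 bp and RRP9, a U3-specific protein, 368 bp. The 9 other factors of the small subunit had a median of 296 bp, from 254 bp at NOP6 to 321 bp at NOP14. Between them were NOP9 with 261 bp, UTP23 with 266 bp, UTP11 with 278 bp, UTP7 with 296 bp, RRP3 with 298 bp, UTP14 with 305 bp and UTP20 with 320 bp. All of these are components or partners of the early precursor of the small subunit. NOP1 had an NDR of 319 bp.

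Genes that act on both subunits had a median of 274.5 bp, with 249 bp at RRP14, 272 bp at RRP5, 277 bp at RRP15 and 321 bp at RRP12, a factor of particle export. The exosome subunits spread most widely, from 231 bp at RRP40, a subunit of its cap, to 450 bp at RRP6, its nuclear exonuclease. Their median was 278 bp, and 2 of 7 held PAC or RRPE. RRP43 and RRP42, which belong to the ring of the exosome, measured 325 and 365 bp, and their ring partners RRP45 and RRP46 measured 256 and 275 bp. RRP4, the other cap subunit among them, had 278 bp. IMP1 had 218 bp and IMP2 271 bp, and neither held PAC or RRPE.

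The extremes of NDR length were therefore UTP22, IMP1, RRP40, UTP4 and RRP14 at the lower end and RRP6, RRP8, RRP9, RRP42 and RRP43 at the upper end. The +1 dyad was farthest from the TSS in RRP8 with 209 bp, UTP9 with 126 bp and UTP5 with 104 bp. It was nearest in IMP1 with 16 bp, UTP10 with 18 bp and RRP1 with 31 bp. The stretches of UTP22 and RRP6 from 160 to 74 bp upstream of the +1 dyad are shown as those of the shortest and the longest NDR, a choice made after the values were seen, with RRPE in capitals and, in RRP6, also the motif TTACCC of the general regulatory factor Reb1. They lie at chrVII:661968-662054 and chrXV:326696-326782 of R64, both on the plus strand.
UTP22: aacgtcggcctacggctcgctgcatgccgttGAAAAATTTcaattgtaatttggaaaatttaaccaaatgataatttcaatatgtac
RRP6: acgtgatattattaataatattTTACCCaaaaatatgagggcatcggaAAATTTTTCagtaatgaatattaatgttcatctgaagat

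In UTP22 the RRPE centre lay 125 bp from the +1 dyad, inside the DNA covered by the −1 nucleosome, whose dyad was 195 bp away. In RRP6 it lay 108 bp from the +1 dyad, with the −1 dyad 450 bp away.

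The position of RRP8, a methyltransferase of the large subunit RNA, depended on the column of +1 dyads. The table holds a second +1 column whose origin the sources do not give. In it the +1 dyad of RRP8 lay 20 bp downstream of the TSS instead of 209 bp, which gave an NDR length of 253 bp instead of 442 bp. Its PAC centre was then 93.5 bp and its RRPE centre 103 bp from the +1 dyad, instead of 282.5 and 292 bp. The columns lay within 20 bp of each other in 51 of 54 genes, or 94.4%, and in 76% of the other ORFs. The exceptions among the 54 were RRP8, IMP1, where the second dyad lay 29 bp farther downstream, and NOP6, where it lay 21 bp farther downstream. With the second column, the median NDR length was 284.5 bp in the 54 genes and 260 bp in the other ORFs.

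PAC was present in 27 of 54 promoters, or 50% (37.1 to 62.9%), beside 4.51% of the 4474 other ORFs with a +1 dyad, which include the other pathway genes described at the end. RRPE was present in 26 of 54, or 48.1% (35.4 to 61.1%), beside 7.78%. Both elements were present in 14 of 54, or 25.9%, beside 1.59%, and 39 of 54, or 72.2%, held at least 1 of them, beside 10.7%. The core GATGAG, which is part of every PAC match, was found in 42 of 54 promoters, or 77.8%, and in 20.3% of the other ORFs. The count of these elements was thus far above that in the other ORFs for each way of writing PAC.

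**Figure D3:**
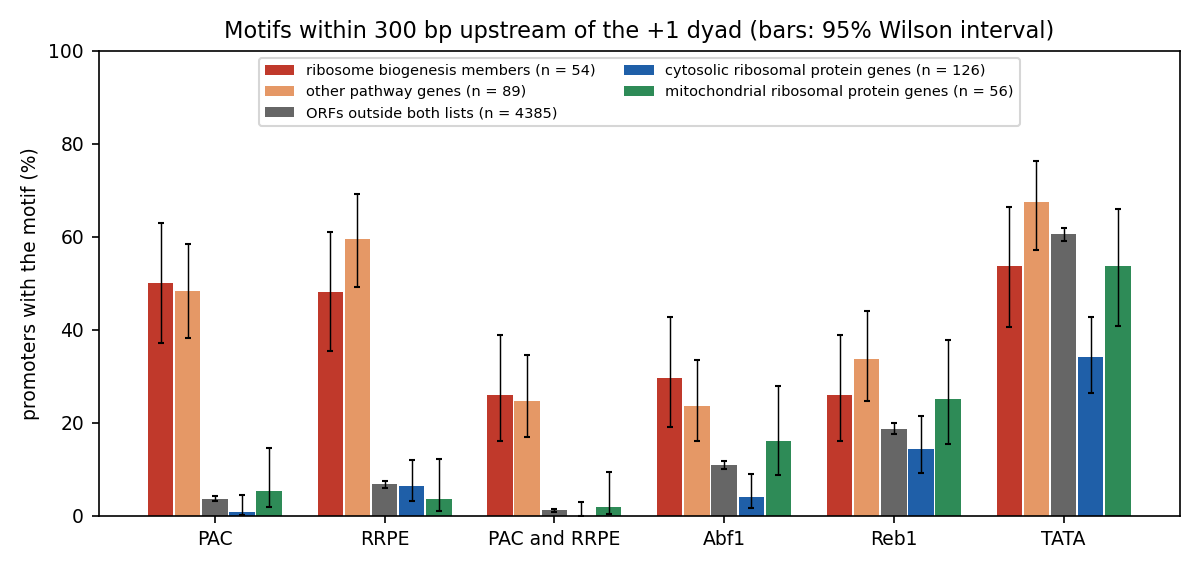
Percentage of promoters (y axis) that hold each motif or pair of motifs within 300 bp upstream of the +1 dyad, by group of genes, with 95% Wilson intervals over genes. PAC stands at 50% and RRPE at 48.1% in the 54 genes (red), whereas the intervals for the Reb1 and TATA motifs overlap those of ORFs outside both lists (grey).

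Motifs of the general regulatory factors Reb1 and Abf1, which keep promoters free of nucleosomes, were each found in fewer of the 54 promoters than PAC or RRPE. The motifs differ in length and in their share in the other ORFs, so these counts do not rank them. The Reb1 motif TTACCC, on both strands, was found in 14 of 54 promoters, or 25.9% (16.1 to 38.9%), beside 19% of the other ORFs, which lies within the interval. A match to the consensus of Abf1 was found in 16 of 54, or 29.6% (19.1 to 42.8%), beside 11.1% of the other ORFs, which lies below the interval. TATAAA or TATATA was found in 29 of 54, or 53.7%, beside 60.6%. The nearest Abf1 match lay between 130 and 193 bp upstream of the +1 dyad in all 16 promoters, with a median of 166.5 bp, beside 155 bp in the other ORFs. The nearest Reb1 motif lay at a median of 157.5 bp, beside 152.5 bp.

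PAC and RRPE occupied a narrow zone next to the +1 nucleosome. The nearest PAC centre lay at a median of 110.5 bp upstream of the +1 dyad (102.5 to 129.5 bp, n = 27), with quartiles of 102.5 and 130 bp. In the 202 other ORFs with PAC the median was 124.5 bp. The nearest RRPE centre lay at 124 bp (113 to 133 bp, n = 26), with quartiles of 112.25 and 135.25 bp, beside 133.5 bp. A nucleosome core reaches 73 bp to either side of its dyad, so both medians were outside the +1 core.

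By the first +1 column, 27 of 27 promoters with PAC had the nearest copy outside the cores of the −1 and +1 nucleosomes. The share was 79.7% in the other ORFs with PAC. By the second +1 column, the PAC centre of UTP4 lay 63.5 bp from the +1 dyad and thus inside the +1 core. For RRPE, the count was 24 of 26, or 92.3%, beside 86%. The exceptions were UTP22 and UTP10, where RRPE lay 283 bp from the +1 dyad and thus within the −1 core. The nearest PAC lay 80 to 140 bp from the +1 dyad in 22 of 27 promoters, or 81.5%, beside 53.5%, and the nearest RRPE in 20 of 26, or 76.9%, beside 55.2%. This range was chosen after the distances were seen. The PAC copies outside it were those of UTP4 at 79.5 bp, NOP14 at 140.5 bp, RRP3 at 197.5 bp, UTP8 at 226.5 bp and RRP8 at 282.5 bp.

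PAC lay upstream of the TSS in 27 of 27 promoters, beside 93.1% of the other ORFs with PAC. RRPE did so in 25 of 26, with UTP9 as the exception, beside 94%, so that both counts were near the background. PAC read on the coding strand in 19 of 27 promoters, or 70.4% (51.5 to 84.1%), beside 53.5%. RRPE did so in 17 of 26, or 65.4% (46.2 to 80.6%), beside 53.2%. The shares of the other ORFs thus lay within both intervals.

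**Figure D4:**
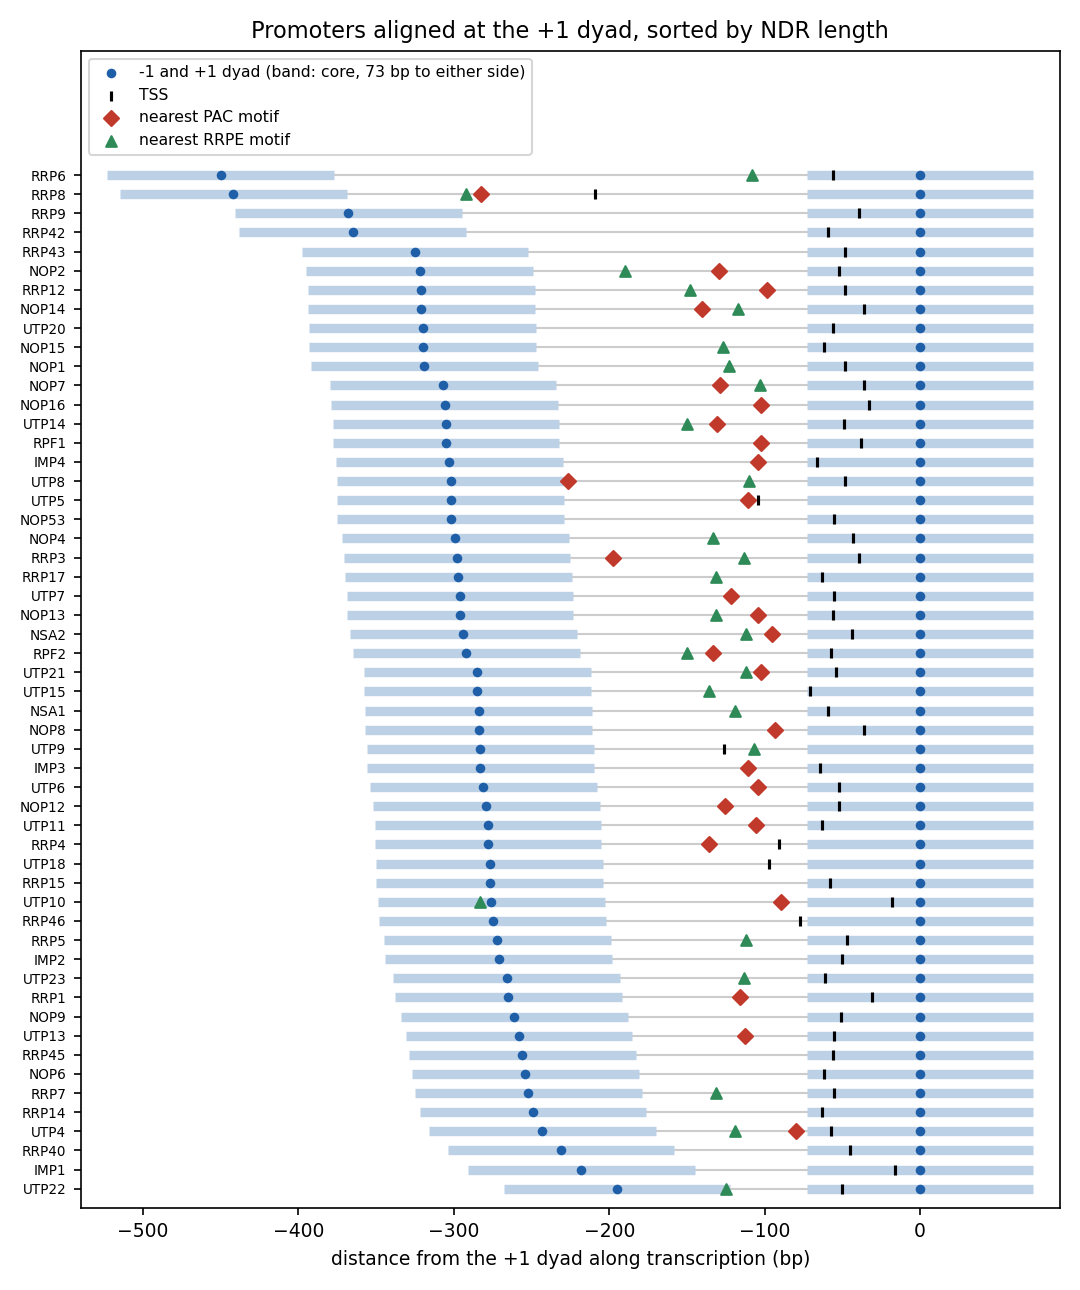
The 54 promoters aligned at the +1 dyad and sorted by NDR length (x axis, distance from the +1 dyad in bp, upstream negative). Points are dyads, blue bands the cores of 73 bp to either side, black ticks the TSS, red diamonds the nearest PAC and green triangles the nearest RRPE, most of which lie in the NDR at its +1 side.

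**Figure D5:**
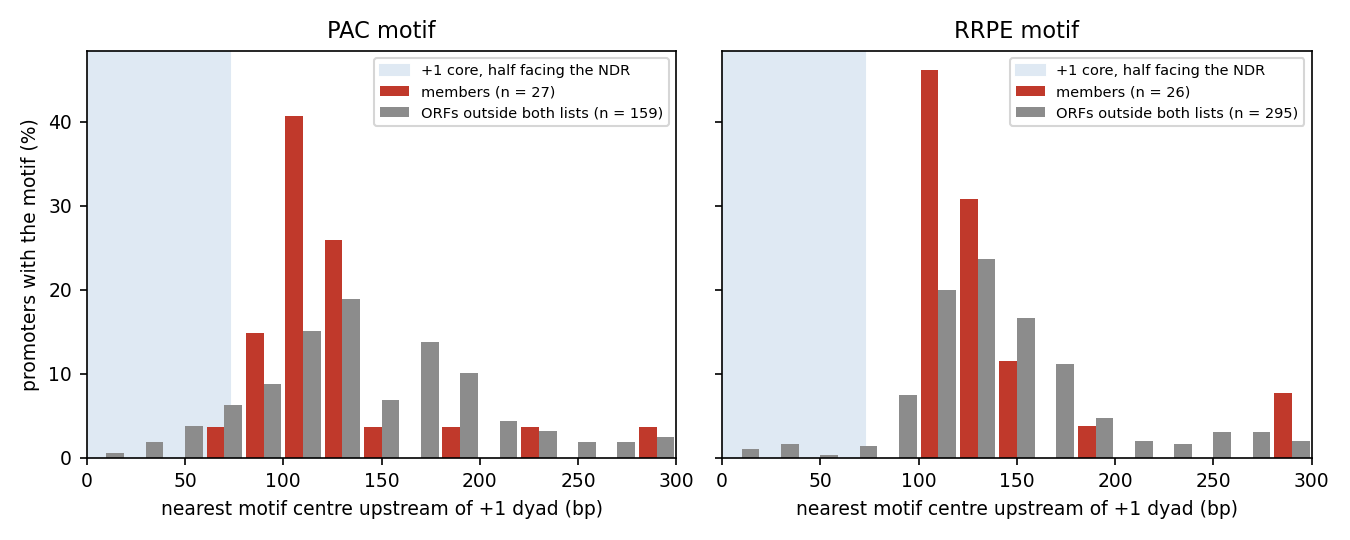
Percentage of promoters holding PAC (left) or RRPE (right) by the distance of the nearest motif centre upstream of the +1 dyad, in bins of 20 bp, for the 54 genes (red) and for ORFs outside both lists (grey). In the 54 genes the bin from 100 to 120 bp is the highest, with 11 of 27 PAC and 12 of 26 RRPE promoters, and the blue area is the part of the +1 core that faces the NDR.

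In the 14 promoters with both elements, RRPE lay upstream of PAC in 10 of 14, or 71.4%, beside 38 of 71, or 53.5%, in the other ORFs with both. The number of bases between them had a median of 17.5, beside 8 in the other ORFs. It was 1 in RRP8 and UTP21, 8 in NSA2 and RPF2, 11 in UTP14, 15 in NOP14, 17 in NOP7 and 18 in NOP13. The elements were thus within 20 bp of each other in 8 of 14 promoters, or 57.1%, beside 73.2% of the other ORFs with both, so that close spacing was not more frequent in these genes. The spacing was 31 bp in UTP4, 41 bp in RRP12, 42 bp in RRP3, a helicase of the small subunit, 52 bp in NOP2, 108 bp in UTP8 and 185 bp in UTP10. The order in NOP14, NOP7, RRP3 and UTP8 was the reverse, with PAC upstream.

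NDR lengths overlapped between promoters with and without the elements. The median was 300 bp in the 14 genes with both, 283 bp in the 13 with PAC alone, 284.5 bp in the 12 with RRPE alone and 275 bp in the 15 with neither, and the ranges overlapped, from 243 to 442 bp in the first group and from 218 to 368 bp in the last. The 15 genes with neither were IMP1, IMP2, 5 of the 7 exosome genes (RRP40, RRP42, RRP43, RRP45 and RRP46), RRP9, RRP14, RRP15, NOP6, NOP9, NOP53, UTP18 and UTP20. Of these, 8 held the core GATGAG. A Reb1 or Abf1 match was found in 2 of these 15, in 9 of the 14 with both elements, in 8 of the 13 with PAC alone and in 9 of the 12 with RRPE alone. That made 28 of 54 genes, or 51.9%, beside 28.7% of the other ORFs. Among the other ORFs, the 202 with PAC had a median NDR length of 282 bp, beside 264 bp in those without. These 202 include 43 of the other pathway genes, and no median was taken without them.

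The sequence upstream of the +1 dyad was rich in A and T. A and T made up a median of 66.5% of the 300 bp in the 54 genes and 64.3% in the other ORFs. Runs of 6 or more A, or of 6 or more T, covered 13.5 bases per promoter on average, beside 10.4. The RRPE motif has 5 A in a row and does not count as such a stretch by itself.

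The share of divergent promoters was close to that of the other ORFs. Among the 4536 ORFs of the table, a divergent ORF was the nearest upstream neighbour of 30 of 54 genes, or 55.6% (42.4 to 68%), beside 55.2% of the other ORFs. Genes absent from the table were passed over. With protein-coding R64 genes as neighbours the share was 53.7%, beside 51.6%. RRP1 and UTP20 then had a tandem neighbour and NOP1 a divergent one. The values that follow use the ORFs of the table. NDR length was 284 bp in the 30 divergent genes (range 218 to 325 bp) and 297.5 bp in the 24 tandem genes (195 to 450 bp), and the 4 longest NDRs, those of RRP6, RRP8, RRP9 and RRP42, were all tandem. In the other ORFs the medians were 262 bp for divergent and 267.5 bp for tandem genes.

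In 19 of the 30 divergent genes, or 63.3% (45.5 to 78.1%), the −1 dyad was the +1 dyad of the neighbour. A single NDR thus served both genes. The share was 42.1% in the divergent other ORFs and 55.1% in the divergent other pathway genes. It was 57.6% in divergent mitochondrial and 9.86% in divergent cytosolic ribosomal protein genes. The gap between the TSSs of divergent neighbours, by the ORFs of the table, had a median of 215 bp in the 54 genes and 355 bp in the other ORFs. Its median was 275 bp in the other pathway genes, 211 bp in mitochondrial and 555 bp in cytosolic ribosomal protein genes. No gene of the 54 shared an NDR with another of them, but NSA2 shared 294 bp with LCP5 and RRP3 shared 298 bp with SSF1, and both partners are ribosome biogenesis factors themselves. Genes of mitochondrial translation were partners of IMP3 (MRPL6, 283 bp), RRP12 (MRPS16, 321 bp) and NOP7 (YGR102C, 307 bp).

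Genes of transcription, splicing and transfer RNA modification were partners of NOP8 (CTR9, 284 bp), NSA1 (TAF6, 284 bp), UTP8 (SYF2, 302 bp) and NOP2 (GCD10, 322 bp). RPF2 shared 292 bp with NUP133 of the nuclear pore, and NOP14 shared 321 bp with RPN5 of the proteasome. RRP15 shared 277 bp with the kinesin gene KAR3. The remaining pairs were UTP21 with VIP1 (285 bp), RRP17 with DFM1 (297 bp), RRP43 with RBK1 (325 bp), NOP6 with SHR3 (254 bp), UTP11 with YKL098W (278 bp), IMP1 with YIM1 (218 bp) and IMP2 with YMR034C (271 bp). A PAC or RRPE match in such an NDR can count for both genes.

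The leader between TSS and start codon was a median of 52 bp in the 54 genes, beside 69 bp in the other ORFs. The +1 dyad was therefore close to the start codon, and lay at it or downstream of it in 26 of 54 genes, or 48.1%, beside 43.9%. Transcripts had a median length of 1513 bp, beside 1593 bp.

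Other genes of the pathway, which carry names outside the rule, were described in the same way. Of 95 listed genes 89 were found, among them factors of both subunits such as the helicases DBP3 and HAS1. Their median NDR length was 291 bp (282 to 302 bp, n = 88), the −1 dyad lay 243.5 bp upstream and the +1 dyad 47 bp downstream of the TSS. PAC was present in 43 of 89, or 48.3%, RRPE in 53, or 59.6%, and both in 22, or 24.7%. RRPE lay upstream of PAC in 18 of these 22 promoters, beside 20 of 49 in ORFs outside both lists, with a median of 7.5 bases between them, beside 8. The nearest PAC lay 80 to 140 bp from the +1 dyad in 93% of the promoters with PAC. In the ORFs outside both lists, PAC was found in 3.63%, RRPE in 6.73% and both in 1.12%, and 42.8% of the PAC copies lay in that range. The other pathway genes thus had values near those of the 54 genes in NDR length, in the share of PAC and in its position.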

How the data were processed

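No column names its library, and the authors' methods were taken as the origin of the −1 and the first +1 column. By these methods, MNase-seq reads of 1 in vivo library were mapped to SacCer3 with Bowtie and read ends shifted by 73 bp to the dyad. The density was smoothed, peaks were called with an exclusion distance of 120 bp, and the top 90% were kept. The +1 dyad was the peak nearest to the TSS within 500 bp downstream, and the −1 dyad the next peak upstream. Coordinates and lengths in bp were deposited. The lists of 3 restriction enzymes and 6 other columns were not used. The sequence and annotation were RefSeq R64, the build of SacCer3. The deposited NDR length equalled the distance between −1 and first +1 dyad in 4903 of 4903 rows. Distances and motifs were computed with Python 3.11.15, numpy 2.4.6, pandas 2.3.3 and scipy 1.17.1. The motif search was tested on simulated data, where 400 of 400 planted motifs were recovered. Medians have order-statistic binomial and shares Wilson 95% intervals, which cover counting of genes only. All 54 genes are named with their NDR length by role. Those described further are the extremes of NDR length and +1 distance, those with both motifs, those sharing a dyad and those whose +1 columns differ most. The members and lists were chosen with earlier results of these data known. Alternatives changed the +1 column, motif, window, neighbour annotation and genes included.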

Additional observations from a re-analysis of the deposited data

How the results depend on the processing

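Of 54 alternatives for 11 results, 50 stayed within the interval of the reported value and 4 moved. PAC written as GATGAG was present in 77.8% of the 54 genes (20.3% of the other ORFs), and both motifs written as GATGAG and AAAAATTTT in 42.6% (4.56%). Reb1 written as TTACCCG was present in 9.26%, beside 10.1%, so that the 54 genes were then below the other ORFs. Stretches of at least 5 A or T held 23.7 bases per promoter, beside 18.6. At this minimum each RRPE match counts as a stretch by itself. The share of divergent promoters was below that of the other ORFs without IMP1 and IMP2 (53.8%) and with all transcripts as neighbours (51.9% against 54.9%). Without the exosome genes the +1 distance was 54 bp, the value of the other ORFs. No paired analysis was possible because the methods name 1 library as the source of the positions. Neither replicate error nor depth is known for a dyad, and the exclusion distance limits how close separate dyads can lie. In 9 of the 4431 other ORFs the NDR length was 0, with the same dyad as −1 and +1, and these were kept. Without NDR lengths of 0 and above 500 bp, the median was 285 bp in the 54 genes and 264 bp in the other ORFs.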

Other observations

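Ribosomal protein genes, whose products the biogenesis factors assemble, are given for comparison. The 126 cytosolic ribosomal protein genes had a median NDR length of 241 bp (207 to 309 bp) with quartiles of 171.5 and 368 bp, a range of 196.5 bp beside 32.25 bp in the 54 biogenesis genes. PAC was found in 1 and RRPE in 8 of these 126 promoters. The 56 mitochondrial ribosomal protein genes had a median NDR length of 272 bp (259 to 280 bp, n = 55) and a quartile range of 35 bp, near that of the biogenesis genes, with PAC in 3 and RRPE in 2 promoters. No test between these groups was made.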
